A study of Homo sapiens with 3 samples.

Results

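The HOX genes encode transcription factors that share a homeodomain, the DNA-binding fold that gives the family its name. Human HOX genes lie in 4 clusters, HOXA, HOXB, HOXC and HOXD, and members with the same number in different clusters form a paralog group. In the embryo their order along a cluster follows the order in which they are used along the body axis, and in the Müllerian duct the 5′ HOXA genes mark successive parts of the female tract, with HOXA9 in the oviduct, HOXA10 in the uterus and HOXA11 in the lower uterus and cervix. Polycomb complexes hold HOX clusters silent and trithorax or MLL complexes keep them active, so the family is a common readout of chromatin regulators. HOX RNA was measured here in TOV21G cells, an ARID1A-mutated ovarian clear cell carcinoma line, after knockdown of the histone deacetylase HDAC2.

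The members were the rows of the gene table whose symbol was HOXA, HOXB, HOXC or HOXD followed by a number from 1 to 13, without antisense or other noncoding RNAs. This gave 40 of 57736 rows with 38 distinct symbols, of which 11 rows were HOXA, 10 HOXB, 11 HOXC and 8 HOXD. The study compared cells transduced with lentivirus carrying a short hairpin RNA against HDAC2 (shRNA 1 in 1 library, shRNA 2 in 1 library) with 1 library labelled WT. The WT label refers to HDAC2, since the whole line carries the ARID1A mutation, and the labels do not say whether WT cells received a control vector. The hairpins are 2 knockdown libraries (n = 2) against n = 1, and nothing says that they came from separate cultures. The p-values rest on the spread between the hairpin libraries, mostly pooled over all genes tested (1 residual and 18.9 prior degrees of freedom). They hold no spread between WT libraries. In GRCh38 the HOXA rows lay on chromosome 7 on the minus strand, and the placed rows of the other clusters spanned a region each, the HOXB rows chr17:48528526-48729178 on the minus strand, the HOXC rows chr12:53938765-54056030 on the plus strand and the HOXD rows chr2:176092891-176190907 on the plus strand.

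The libraries held 11398791 (shRNA 1), 11225492 (shRNA 2) and 10138479 (WT) counts. A count of 0 allows up to 3 counts, or 0.261, 0.265 and 0.301 CPM (counts scaled to a common library size) in the same order of libraries. HDAC2 was at 33.4 and 51.5 CPM in shRNA 1 and shRNA 2 cells, against 105 CPM in WT cells, a log2 change of -1.31 ± 0.20 (SE; adjusted p = 4.82e-04, edgeR quasi-likelihood test). The Müllerian marker PAX8 was high (250 and 174 CPM in knockdown cells, 263 CPM in WT cells), as was SPP1, a secreted phosphoprotein that rose (1134 and 1091 CPM in knockdown cells, 726 CPM in WT cells, adjusted p = 0.0176), while NAPSA reached at most 0.348 CPM and ESR1 had 0 counts. Summed leukocyte markers were at 2.44 and 0.971 CPM in knockdown cells and 3.51 CPM in WT cells, and 3 endothelial markers, of which KDR had 0 counts, at 0.871 and 0.353 CPM against 0.200 CPM in WT cells. Of 6 fibroblast markers COL3A1 and LUM had 0 counts, and the list summed to 24.2 and 38.7 CPM in knockdown cells against 15.6 CPM in WT cells. That sum was mostly COL1A2, a collagen chain that rose by 1.48 ± 0.27 on the log2 scale (adjusted p = 0.00235). The part of these markers in the HOX values was not tested, and in bulk RNA fewer cells of a type and less RNA per cell cannot be told apart.

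TOV21G cells had RNA of most of the family. In total 33 of the 40 rows had at least 3 counts in every library, and 31 had at least 10. The HOXA cluster dominated in each library. Per kilobase of transcript it made up 68.3 ± 1.94% of the HOX level (mean ± SD over the 3 libraries), HOXC 21.5 ± 1.43%, HOXB 6.81 ± 0.47% and HOXD 3.39 ± 0.39%. These shares did not overlap between clusters in any library.

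The highest HOX RNA was HOXA10, the uterine segment gene, at 75.3 and 61.7 CPM per kb in shRNA 1 and shRNA 2 cells and 66.9 CPM per kb in WT cells. HOXA5, a central HOXA gene with roles in lung development, was at 66.5 and 70.8 CPM per kb in knockdown cells and 59.5 CPM per kb in WT cells. These levels overlapped across the libraries, so the order of the top 2 genes was not resolved, and it turned round with the union of exons as length. HOXC10, from the same paralog group as HOXA10, came next with 42.3 and 49.3 CPM per kb in knockdown cells and 49.5 CPM per kb in WT cells, below both in every library. After it came the row named HOXA9, which is described below, then HOXA7. HOXA3, HOXA2, HOXB7, HOXA6, HOXA11, HOXA4, HOXB13 and HOXC8 were lower, between 8.12 and 14.6 CPM per kb, each overlapping its neighbour in the order.

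**Figure D1:**
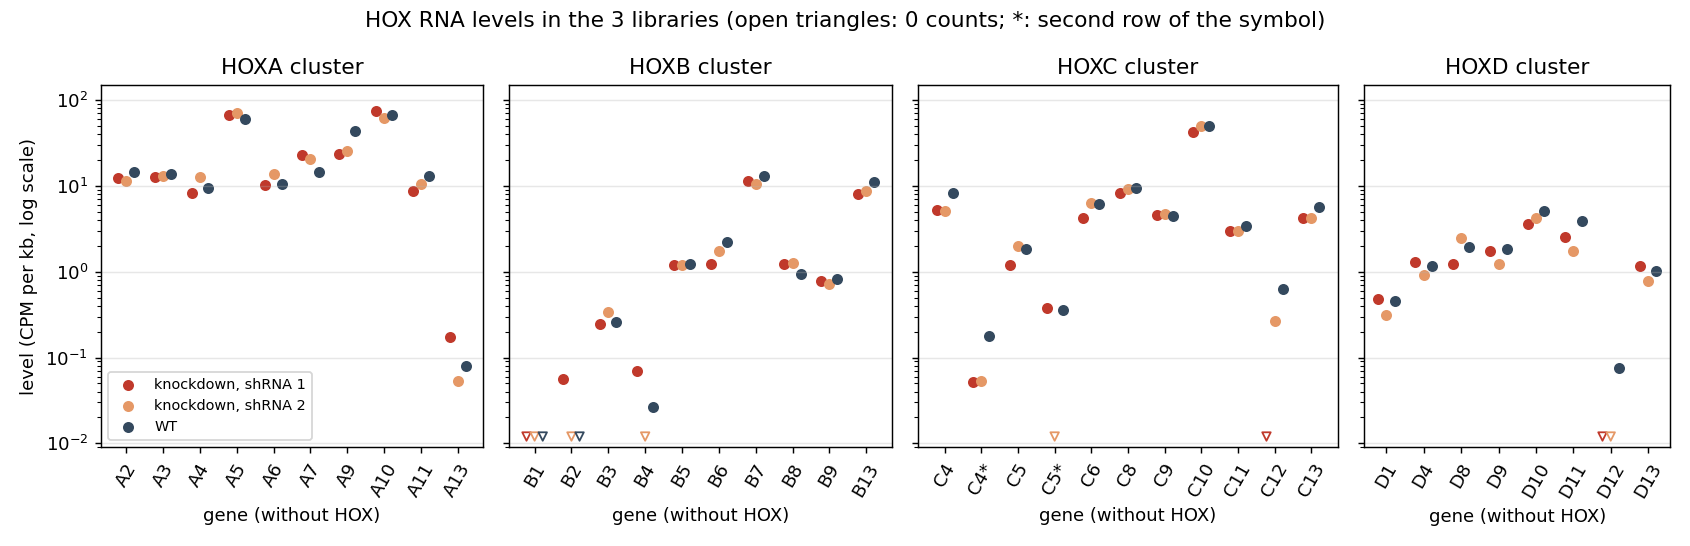
Each point is the level of one of the HOX rows described here in one library (CPM per kb of transcript, log axis), by cluster and gene number, with shRNA 1, shRNA 2 and WT from left to right at each gene. HOXA10, HOXA5 and HOXC10 stand above the other genes in all 3 libraries, and HOXB1 is at 0 counts in all of them.

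Most of the level lay in few genes. HOXA10 held 28.97% and HOXA5 27.6% of the HOXA level per kilobase in shRNA 1 and shRNA 2 cells, in each case the leading gene of that library, and HOXA10 led with 25.1% in WT cells. HOXC10 held 57.6% and 58.5% of the HOXC level in knockdown cells and 55.045% in WT cells. HOXB7 led the HOXB cluster with 46.9% and 42.6% in knockdown cells and 44.3% in WT cells. HOXD10 led the low HOXD cluster with 3.55 and 4.22 CPM per kb in knockdown cells and 5.09 CPM per kb in WT cells. Across clusters, paralog group 10 had the highest level, 121 and 115 CPM per kb in knockdown cells and 122 CPM per kb in WT cells. Paralog group 5 came next with 69.3 and 74.0 CPM per kb in knockdown cells and 62.9 CPM per kb in WT cells.

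The clusters differed in which end was used. Toward the 3′ end of HOXA, HOXA2 was at 12.3 and 11.3 CPM per kb in knockdown cells and 14.6 CPM per kb in WT cells, and HOXA3 at 12.6 and 12.9 CPM per kb in knockdown cells and 13.9 CPM per kb in WT cells. In HOXB the genes numbered 1 to 3 summed to only 0.304 and 0.336 CPM per kb in knockdown cells and 0.262 CPM per kb in WT cells. HOXB1, a hindbrain segment gene, had 0 counts in all 3 libraries. HOXB2 had 1 and 0 counts in knockdown cells and 0 in WT cells, and HOXB4 had 3 and 0 counts in knockdown cells and 1 in WT cells. At the other end, HOXA13, HOXD12 and HOXC12 were low. HOXA13, which marks the most distal tract, had 10 and 3 counts in knockdown cells and 4 in WT cells. HOXB13, a prostate and hindgut gene, was higher, with 8.12 and 8.76 CPM per kb in knockdown cells and 10.98 CPM per kb in WT cells, and HOXC13 was at 4.21 and 4.19 CPM per kb in knockdown cells and 5.71 CPM per kb in WT cells.

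The homeobox is the most conserved part of these genes. The 30 bases that encode the core of the DNA-recognition helix of the homeodomain are shown for 2 members of paralog group 10, the group with the highest level, from GENCODE 29 transcripts (GRCh38), with capitals where a base differs from HOXA10.
HOXA10: gtgaaaatctggtttcagaaccgcaggatg
HOXD10: gtCaaGatTtggtttcaAaaccgcCgAatg
HOXD10 differed from HOXA10 at 6 of these 30 bases. Over the 180 bases of the whole homeobox, the identity of HOXA10 with HOXD10 was 77.8%. Pairs were then formed with 1 row per gene as GENCODE 29 names it, which adds HOXD3 and takes HOXA9 from the row named HOXA10-HOXA9, and leaves out the row named HOXA9 and the second rows of HOXC4 and HOXC5. Among 42 such pairs of one paralog group the median identity was 81.67% (69.44% to 90.56%), and among 699 other pairs it was 60.56%. Over the main transcripts the longest identical run in these pairs was 62 bases, between HOXB3 and HOXD3, and 0 pairs had a run of 75, the read length. The rows named HOXA9 and HOXA10-HOXA9, of one locus, did share a longer run, of 399 bases. Both HOXC4 rows were given the same main transcript, so their run of 1666 bases compares that transcript with itself. Sharing between neighbours of one cluster is another matter, since their annotated transcripts overlap.

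Summed over a cluster, HOXA RNA was close to level after knockdown, and the other 3 clusters were lower than WT in both knockdown libraries. HOXA summed to 526 and 502 CPM in shRNA 1 and shRNA 2 cells against 515 CPM in WT cells. HOXB summed to 54.4 and 56.2 CPM in knockdown cells against 67.8 CPM in WT cells. HOXC summed to 148 and 172 CPM in knockdown cells against 184 CPM in WT cells, and HOXD to 22.04 and 21.8 CPM in knockdown cells against 28.2 CPM in WT cells. The mean of the knockdown libraries over WT was 0.999 for HOXA, 0.815 for HOXB, 0.872 for HOXC and 0.779 for HOXD. In HOXC the knockdown libraries differed from each other by more than shRNA 2 cells differed from WT cells. These sums have no test, and their intervals cover counting error only. With the trend of counts in transcript GC content removed, the ratios were 1.09, 0.921, 0.956 and 0.874 in the same order of clusters.

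**Figure D2:**
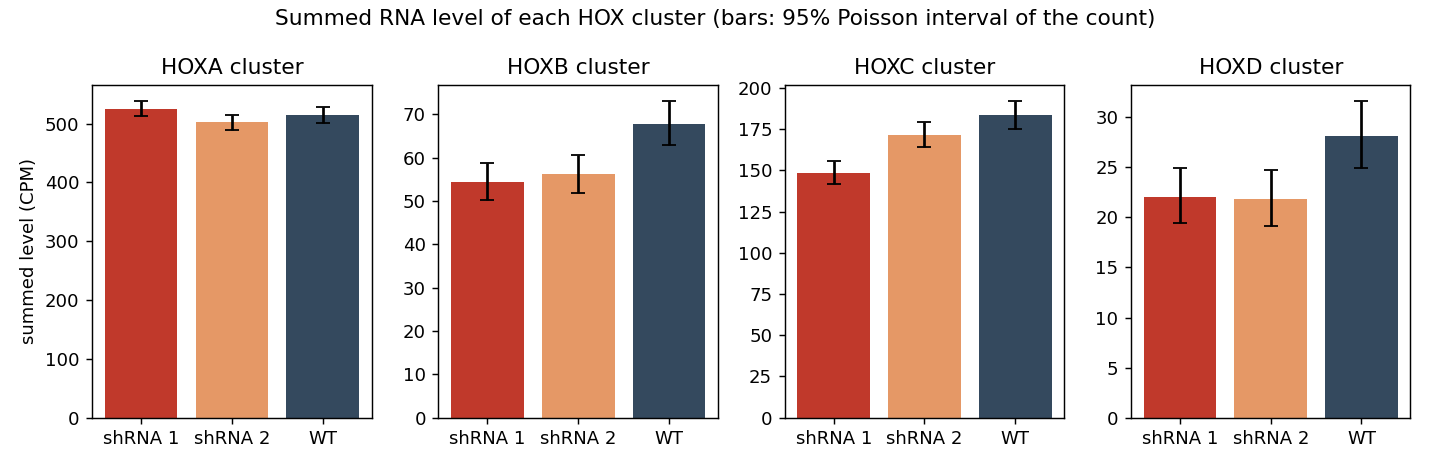
Bars give the summed level of each HOX cluster (CPM, linear axis from 0) in shRNA 1, shRNA 2 and WT cells, with 95% exact Poisson intervals of the summed count. The HOXB and HOXD bars of both knockdown libraries lie below WT, and the HOXA knockdown bars of 526 and 502 CPM lie on either side of the WT bar of 515 CPM.

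By single genes, 1 of the 33 tested rows passed the test (adjusted p below 0.05 over all 14524 genes). It was the row named HOXA9, lower after knockdown. That is 3.03% of the tested rows lower, beside 3.76% of all genes tested, and 0 of 33 higher, beside 3.96%. Over both directions 7.72% of all genes passed. Before adjustment, 6 rows (18.2%) had a p below 0.05, beside 23.5% of all genes. The 7 rows not tested for low counts were HOXA13, HOXB1, HOXB2, HOXB4, HOXD12 and the second rows of HOXC4 and HOXC5. The comparison was also simulated over 14524 genes. This found 12% of the genes altered 1.5-fold, 54.69% of those altered 2-fold and 86.89% of those altered 4-fold. Only 75, 64 and 61 genes were altered, in the same order, a smaller share than the 7.72% that passed in the data. A 1.5-fold change could thus be missed here, at a rate that the simulation does not give. The HOX rows had a median count of 112, beside 241 over all genes tested.

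The one call belongs to a row whose name needs care. The row named HOXA9 in the table has the gene ID ENSG00000257184. GENCODE 29 places this ID at chr7:27163535-27180013 on the minus strand, where its transcript reads through from HOXA10 into HOXA9. The row named HOXA10-HOXA9 has the ID ENSG00000078399, which GENCODE 29 calls HOXA9 and places at chr7:27162435-27175180 on the same strand. GENCODE 29 gives the ID of the row named HOXA9 the clone name AC004080.3, so the name HOXA9 sits on different IDs in the table and in GENCODE 29.

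The row named HOXA9 had 205 and 222 counts in shRNA 1 and shRNA 2 cells, against 334 counts in WT cells (17.9 and 19.6 CPM against 33.5 CPM). Both knockdown libraries were lower, and they were close to each other. The log2 change was -0.84 ± 0.20 (SE; adjusted p = 0.0135, edgeR quasi-likelihood test). The row named HOXA10-HOXA9 had 503 and 656 counts in knockdown cells, against 425 counts in WT cells, with a log2 change of 0.26 ± 0.20 (adjusted p = 0.458). Both rows summed to 708 and 878 counts in knockdown cells, against 759 counts in WT cells. The sum was below WT with shRNA 1 and slightly above with shRNA 2 in CPM, and its log2 change was -0.13 ± 0.18 (adjusted p = 0.720). Of the 75-base sequences of the row named HOXA9, 53.1% also occur in some other row and 27.9% in the row named HOXA10-HOXA9. HOXA10 is another such row, with 7.65% of its own 75-base sequences in the row named HOXA9. HOXA10 was not added to the sum. The estimated counts divide such reads by a model. The call was also lost with DESeq2's Wald test (adjusted p = 0.170), without a filter on low counts (adjusted p = 0.468) and with the GC trend removed (log2 -0.69, adjusted p = 0.105), and its adjusted p lay between 0.00849 and 0.720 over the alternatives. The values show a lower count of the read-through row, and no change of the sum of both rows that passed the test. Reads shared with HOXA10 are not settled by that sum.

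**Figure D3:**
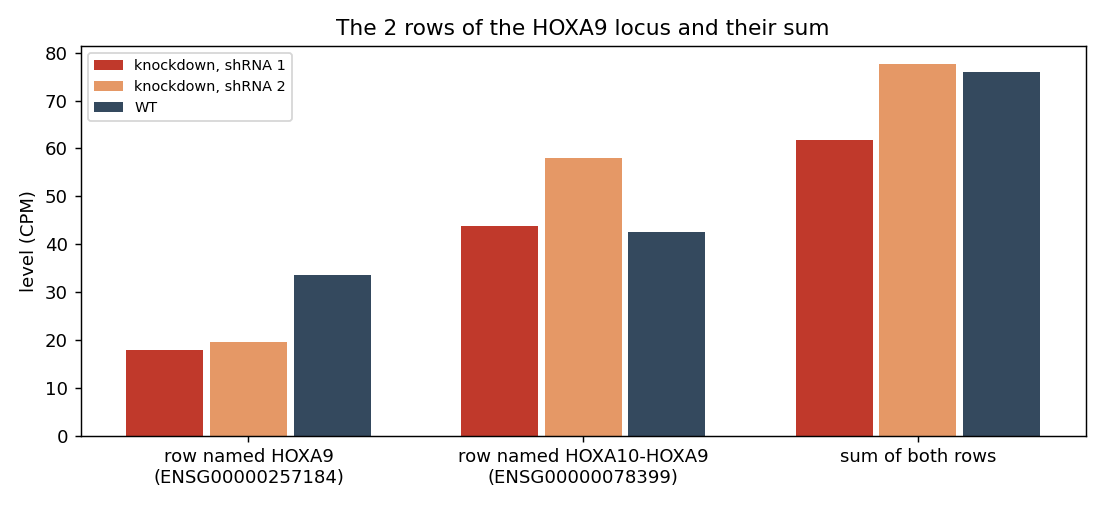
Bars give the level (CPM, linear axis from 0) of the row named HOXA9, the row named HOXA10-HOXA9 and their sum in shRNA 1, shRNA 2 and WT cells, with 1 library per bar and no error bar. The row named HOXA9 is lower in both knockdown libraries (17.9 and 19.6 CPM) than in WT cells (33.5 CPM), and the sums of shRNA 1, shRNA 2 and WT cells do not separate by group.

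HOXA7, a central HOXA gene, had the largest positive estimate. It had 532 and 467 counts in shRNA 1 and shRNA 2 cells, against 293 counts in WT cells (46.3 and 41.2 CPM against 29.4 CPM). Both knockdown libraries were above WT, with a log2 change of 0.58 ± 0.19 that missed the threshold (adjusted p = 0.0697) and passed it with total count scaling (adjusted p = 0.0383, in a range up to 0.468 over the alternatives). The antisense RNA HOXA-AS3 covers 61.5% of the 75-base sequences of HOXA7 on the other strand. The use of strand in counting is not stated, so it is not known whether reads of that shared part were told apart. HOXA-AS3 itself had 154 and 170 counts in knockdown cells, against 165 counts in WT cells. HOXA6, HOXA7 and HOXA-AS3 together had 803 and 789 counts in knockdown cells, against 561 counts in WT cells (log2 0.31 ± 0.17, adjusted p = 0.285).

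The remaining Müllerian genes of HOXA did not pass. HOXA10 had 2197 and 1775 counts in knockdown cells, against 1698 counts in WT cells, and a log2 change of 0.03 ± 0.18. After scaling, shRNA 1 cells were above WT and shRNA 2 cells below (191 and 157 CPM against 170 CPM). HOXA11 had 227 and 273 counts in knockdown cells, against 301 counts in WT cells, with both knockdown libraries lower. Its log2 change was -0.46 ± 0.21 (adjusted p = 0.182). HOXA11-AS covers 27.7% of its 75-base sequences on the other strand, and with that row added the log2 change was -0.44 ± 0.20. HOXA5 had 1265 and 1328 counts in knockdown cells, against 984 counts in WT cells, with both knockdown libraries higher and a log2 change of 0.21 ± 0.17 (adjusted p = 0.507). The 3′ genes HOXA2 and HOXA3 were at -0.30 and -0.12, with both knockdown libraries below WT, and HOXA4 and HOXA6 were split between the hairpins.

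In HOXB, HOXB13 had 323 and 344 counts in knockdown cells, against 380 counts in WT cells, a log2 change of -0.38 ± 0.19 (adjusted p = 0.228). HOXB7, which leads its cluster, had 180 and 162 counts in knockdown cells, against 179 counts in WT cells (log2 -0.26 ± 0.22). The knockdown libraries of both genes were below WT after scaling. HOXB3, HOXB5, HOXB6, HOXB8 and HOXB9 had at most 43 counts in a library. Their SE lay between 0.42 and 0.70, so that 1.5-fold changes would easily be missed at such counts.

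In HOXC, the main HOXC4 row had 101 and 97 counts in knockdown cells, against 138 counts in WT cells, a log2 change of -0.67 ± 0.24 (adjusted p = 0.0938). Of its 75-base sequences 66.1% also occur in other rows and 44.6% in the second HOXC4 row. Summed with that second row it gave -0.69 ± 0.24 (adjusted p = 0.0842). HOXC6, with 11.7% of its own 75-base sequences in the main HOXC4 row, was not added. HOXC13, a hair and nail gene, had 117 and 115 counts in knockdown cells, against 138 counts in WT cells (log2 -0.44 ± 0.23, adjusted p = 0.264). HOXC10 had 941 and 1080 counts in knockdown cells, against 957 counts in WT cells (log2 -0.11 ± 0.17), with shRNA 2 cells at WT level. HOXC12 had 0 and 10 counts in knockdown cells, against 21 counts in WT cells. With its 0 in shRNA 1 cells set to 3 counts, it was 8.05-fold lower there than in WT cells. That value takes the WT count as exact. With counting error in both libraries, the interval of the ratio of shRNA 1 to WT reached up to 0.167. The fitted change of HOXC12 did not pass (adjusted p = 0.139). HOXC5, HOXC6, HOXC8, HOXC9 and HOXC11 lay between -0.24 and 0.03 on the log2 scale.

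In HOXD, HOXD11 had 45 and 30 counts in knockdown cells, against 59 counts in WT cells, a log2 change of -0.84 ± 0.38 (adjusted p = 0.186). HOXD10 had 81 and 95 counts in knockdown cells, against 101 counts in WT cells (log2 -0.39 ± 0.27, adjusted p = 0.411). Both knockdown libraries were below WT for each of them. HOXD1, HOXD4, HOXD8 and HOXD13 were split between the hairpins, and HOXD9 had 37 and 26 counts in knockdown cells, against 34 counts in WT cells. The ID of HOXD3 carries the older name BC047605 in the table and is therefore no member. It had 30 and 33 counts in knockdown cells, against 22 counts in WT cells (log2 0.32 ± 0.48), and 74.3% of the 75-base sequences of HOXD4 also occur in it.

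**Figure D4:**
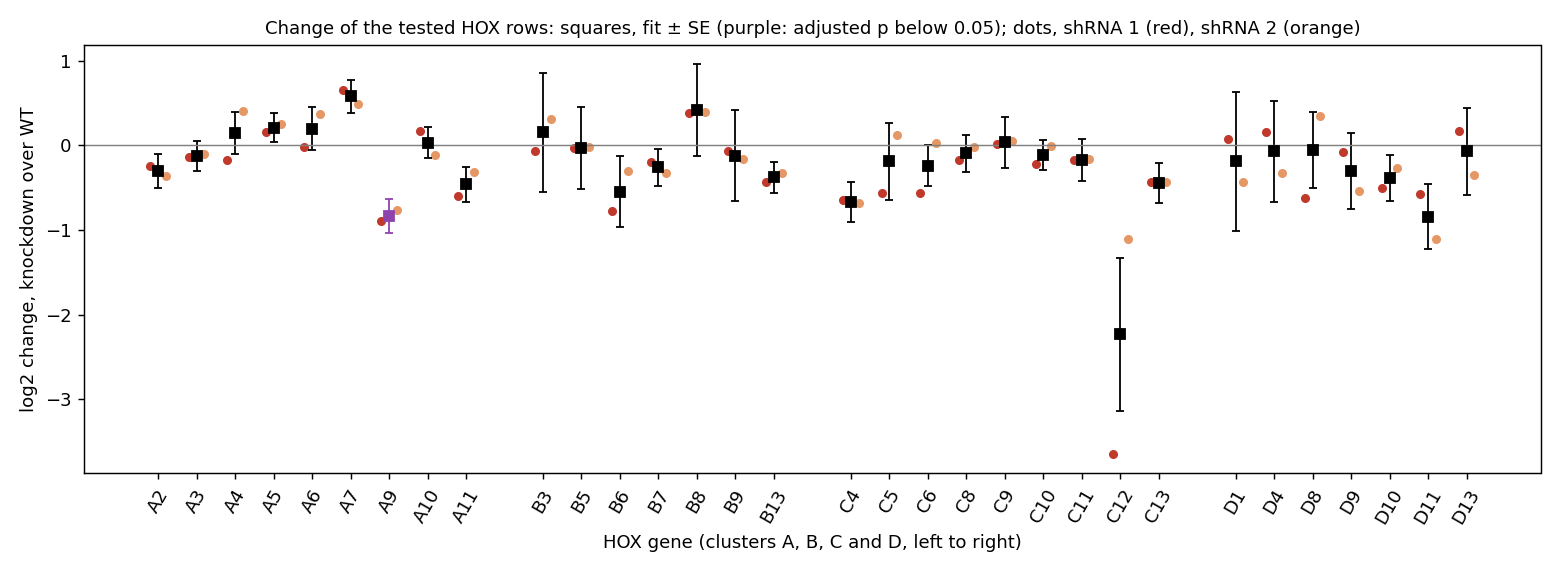
Squares give the log2 change (knockdown over WT) of the tested HOX rows described here with its SE from the fit, and dots give the single hairpins against WT, shRNA 1 on the left and shRNA 2 on the right of each square. The row named HOXA9 (purple, -0.84) passed the test, and the shRNA 1 dot of HOXC12 rests on 0 counts, so its place depends on the prior count.

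Small decreases were common without passing the test. Both knockdown libraries were below WT for 19 of the 33 tested rows (57.6%), beside 39.3% of all genes tested, and above WT for 4 (12.1%), beside 39.9%. The rows with both above were HOXA5, HOXA7, HOXB8 and HOXC9. Both were also above WT for the row named HOXA10-HOXA9 (102.9% and 136.1% of WT in shRNA 1 and shRNA 2 cells). The same held for BC047605, the ID of HOXD3 (118.6% and 132.2% of WT). The rows named HOXA10-HOXA9 and BC047605 are no members by their names, so these counts leave them out. The row named HOXA9, a read-through, is counted among those with both below. By cluster, both were below for 5 of 10 HOXA, 5 of 7 HOXB, 6 of 9 HOXC and 3 of 7 HOXD rows. By position, both were below for 11 of the 14 tested rows numbered 9 to 13, whose median log2 change was -0.34. The 14 tested rows numbered 4 to 8 had a median of -0.06, with 5 of them below in both. These differences between positions have no test, and they were taken without the removal of the GC trend described below. The rows numbered 9 to 13 include the read-through row named HOXA9 and HOXC12, which had 0 counts in shRNA 1 cells. The median over the 33 rows was -0.17, beside 0.01 over all genes tested.

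This tilt of the HOX rows as a whole was no longer seen once a trend in base composition was removed. The trend was fitted in each library, and with 1 WT library it cannot be told apart from a change with knockdown. The cause of the trend was not tested. HOX transcripts had a median GC content of 55.1%, beside 48.0% over all genes tested. Across all genes tested the median log2 change was 0.34 at a GC content up to 40%, 0.02 between 45% and 50%, -0.11 between 50% and 55%, -0.22 between 55% and 60% and -0.29 above 60%. With the trend removed, the median of the HOX rows was 4.23e-04, beside 0.0084 over all genes, and 16 of 33 rows (48.5%) were below 0, beside 49.0% of all genes. Without that correction 25 of 33 (75.8%) were below 0, beside 49.3%. HOXA7 was at 0.73 with the trend removed (adjusted p = 0.0689).

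**Figure D5:**
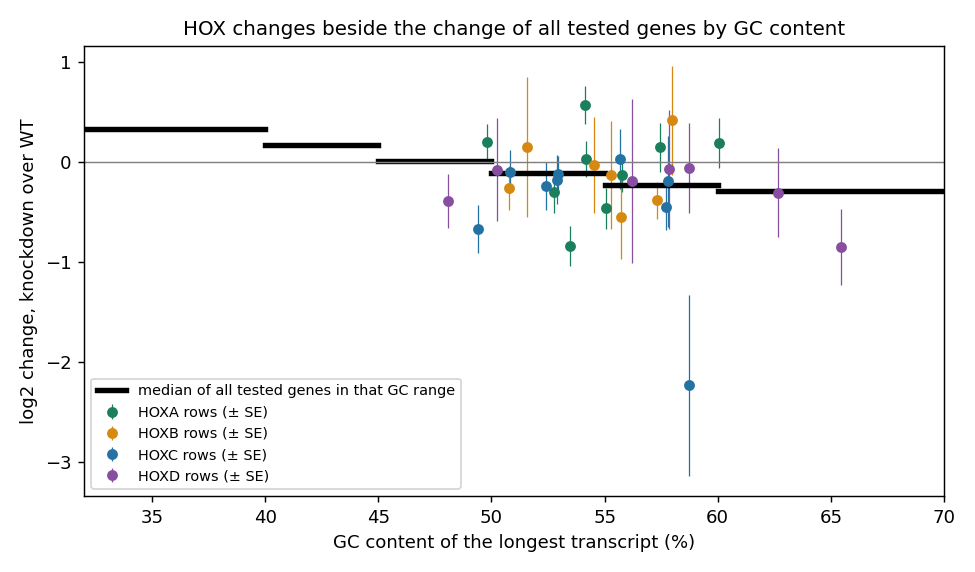
Points give the log2 change (knockdown over WT, ± SE) of the tested HOX rows described here against the GC content of its longest transcript, coloured by cluster, and black lines give the median of all tested genes in each GC range. Most HOX rows lie above 50% GC, where the medians of all genes are -0.11, -0.22 and -0.29.

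Between the hairpins, a single row, HOXC12, was more than 2-fold apart (3.03%, beside 3.59% of all genes tested). It had 10 counts in shRNA 2 cells against 0 in shRNA 1 cells. That is 3.38-fold higher with the 0 set to 3 counts and the 10 taken as exact. With counting error in both libraries, the interval of the ratio of shRNA 2 to shRNA 1 began at 2.27. The median absolute difference between the hairpins was 0.22 on the log2 scale for the HOX rows, beside 0.19 over all genes, and 20 of 33 rows (60.6%) were higher in shRNA 2 cells, beside 50.2% of all genes tested. HDAC2 itself was at 31.7% of WT in shRNA 1 cells and 48.9% in shRNA 2 cells.

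The clusters also hold microRNA genes whose targets include HOX RNAs. The mature sequences that bear on the members below are shown from RefSeq (GRCh38.p14), with the seed, bases 2 to 8, in capitals.
hsa-miR-196a-5p: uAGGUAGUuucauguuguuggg
hsa-miR-196b-5p: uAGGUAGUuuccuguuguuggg
hsa-miR-10a-5p: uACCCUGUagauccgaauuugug
The forms miR-196a and miR-196b share their seed. MIR196A1 lies in HOXB, with its mature form at chr17:48632532-48632553, MIR196A2 in HOXC at chr12:53991762-53991783 and MIR196B in HOXA at chr7:27169528-27169549. MIR10A lies in HOXB at chr17:48579904-48579926. Their rows had 0 counts in every library, which says little about the mature forms in a library of long RNA.

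The match to the miR-196 seed, ACTACCT on the transcript's sense strand, occurred in the 3′ UTR of 7 of 38 HOX genes (18.4%), beside 6.89% of 18967 genes with a 3′ UTR. The longer match with a closing A, which is contained in the count above, occurred in 5 of 38 (13.2%), beside 1.38%. HOX 3′ UTRs were shorter, with a median of 847 bases beside 1025. HOXA7, the member with the largest positive estimate, held 4 of the longer matches, and HOXA5, HOXB6, HOXB7 and HOXC8 held 1 each. A match is a description of the sequence and not of binding. The first HOXA7 match and that of HOXA5 are shown with the match in capitals, and the HOXB8 site, the member closest to a full complement of miR-196a, with the base that does not pair as a complement in capitals.
HOXA7: tggcgcgtccaaaatACTACCTA
HOXA5: gatatttttattcaaACTACCTA
HOXB8: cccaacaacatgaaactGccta
The HOXB8 site matched the complement of miR-196a at 21 of 22 bases, and it was the 1 of 18967 3′ UTRs with a site of as many. HOXB8 had 26 and 26 counts in knockdown cells, against 17 counts in WT cells (log2 0.42 ± 0.54, adjusted p = 0.692). Of the 5 genes with the longer match, HOXA5 and HOXA7 were above WT in both knockdown libraries and HOXB6, HOXB7 and HOXC8 were below WT in both. The match to the miR-10a seed, ACAGGGT, occurred in 3 of 38 genes (7.89%), beside 12.3% of all, and the longer match with a closing A in HOXA3 and HOXB3, 2 of 38 (5.26%), beside 2.02%. HOX promoters in RefSeq, found for 19 members with 26 promoters, had a median of 21 CpG, beside 14 over 35097 promoters.

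The genes that work with or on HOX genes were read from lists, to be set beside the 7.72% of all genes tested that passed. HOX proteins bind DNA with TALE homeodomain partners, and 0 of 8 tested partners passed edgeR's test in either direction, 0 of them at an unadjusted p below 0.05 and 0 by DESeq2's Wald test. PBX2 was at 78.2 and 71.3 CPM in knockdown cells and 86.7 CPM in WT cells. Of 11 tested noncoding RNAs of the clusters 0 passed by either tool, and 0 had an unadjusted p below 0.05 in edgeR. HOTAIRM1, at the 3′ end of HOXA, had 236 and 304 counts in knockdown cells and 252 counts in WT cells, HOXA-AS2 had 212 and 227 counts in knockdown cells and 195 counts in WT cells, and HOTTIP, at the 5′ end of HOXA, had at most 1 count.

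Of 20 Polycomb genes tested, 2 rose and 2 fell after adjustment. Over all genes tested 3.96% rose and 3.76% fell, the shares to set beside this and the following lists. PHF19, a PRC2 accessory protein that reads a methylated histone, fell by 1.03 on the log2 scale (SE 0.17, adjusted p = 8.85e-04), with 846 and 965 counts in knockdown cells and 1622 counts in WT cells. PCGF2, a PRC1 subunit, fell by 0.59 (SE 0.17, adjusted p = 0.0366). The PRC1 gene BMI1 rose (0.72 ± 0.20, adjusted p = 0.0309). At an unadjusted p below 0.05 there were 5 of the 20 Polycomb genes, 7 of 15 trithorax and MLL genes and 5 of 9 retinoic acid genes, beside 23.5% of all genes tested. Of the 15 trithorax and MLL genes 1 fell and 0 rose after adjustment: DOT1L, the H3K79 methyltransferase that MLL fusion proteins use at HOXA, had 153 and 124 counts in knockdown cells and 218 counts in WT cells (-0.85 ± 0.22, adjusted p = 0.0218). Of 9 tested retinoic acid pathway genes 1 fell and 0 rose, the receptor RARG, with 97 and 92 counts in knockdown cells and 154 counts in WT cells (-0.90 ± 0.24, adjusted p = 0.0249). With the GC trend removed these 5 calls were lost in edgeR. PHF19 was then at -0.79 on the log2 scale (adjusted p = 0.0585), PCGF2 at -0.59 (0.0956) and BMI1 at 0.44 (0.267). DOT1L was at -0.54 (0.211) and RARG at -0.62 (0.191). That fit had 7.27 prior degrees of freedom, beside 18.9 in the main fit. A lost call there is thus not by itself a smaller change, and the estimate of PCGF2 stayed at -0.59. With DESeq2's Wald test PHF19 passed, BMI1 (0.170) and PCGF2 (0.183) did not, and DOT1L and RARG were given no adjusted p, so that 0 trithorax or MLL genes and 0 retinoic acid genes passed by that test.

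Genes beside the clusters and other homeobox genes made few calls, to be set beside 7.72% of all genes tested. Of 10 tested neighbours 1 fell and 0 rose, and 2 of the 10 had an unadjusted p below 0.05 in edgeR. The gene that fell was ATP5G2, an ATP synthase subunit gene beside HOXC. It had 4033 and 4029 counts in knockdown cells and 5198 counts in WT cells. Its log2 change was -0.56 ± 0.16 (adjusted p = 0.0349 in edgeR and 0.0567 with DESeq2's Wald test). With the GC trend removed its log2 change was -0.55 (adjusted p = 0.0884). Of 13 tested other homeobox genes of the ANTP class 0 passed by either tool and 2 had an unadjusted p below 0.05 in edgeR, with a median log2 change of -0.43. DLX5 was at 134 and 139.8 CPM in knockdown cells and 125 CPM in WT cells, and MSX2 at 133 and 149.6 CPM in knockdown cells and 115 CPM in WT cells.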

How the data were processed

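RNA-seq libraries of TOV21G cells were made from total RNA with a ScriptSeq complete Gold kit and read as 75 bases, per the labels' protocols. The authors deposited 1 table of estimated counts, already whole, with a column per library. RSEM 1.2.3, edgeR and the hg19 build are named in the submitters' processing notes without their roles. Reads shared between genes are divided by a model in RSEM. The hg19 annotation was not used here.

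Of 57736 rows, 34038 had no count and 14524 passed filterByExpr (minimum count 10). Knockdown (n = 2) was compared with WT (n = 1) with edgeR 4.0.16 in R 4.3.3 (quasi-likelihood test, TMM factors), with Benjamini-Hochberg adjustment over all tested genes, on 1 residual and 18.9 prior degrees of freedom. The test was tested on simulated data. Differences between hairpins (prior count 2) were not tested. GENCODE 29 (GRCh38) gave positions, transcript lengths, GC content (known for 97.2% of genes tested) and shared 75-base sequences. Rows were summed only with the partner row of largest overlap on each strand. Overlaps of at least 20% count as shared. Among those not given above were HOXA4 with RP1-170O19.22 (26.9%) and the main HOXC5 row with its second row (58.3%). On the other strand they include HOXA6 with HOXA-AS3 (23.6%) and HOXD1 (51.9%). Levels between genes are CPM per kilobase of the longest coding transcript. Intervals cover counting error only. Alternatives used other scalings, filters, DESeq2 1.42.0, a GC correction, summed rows and each hairpin alone. The rule for named genes took HOX rows, HDAC2, and from each context list the members past the test or else the 2 with the highest mean count. HOTTIP, HOXA-AS3, BC047605, the row named HOXA10-HOXA9 and the markers given with levels were named after their values were seen. The members and lists were chosen with earlier results of these data known. Some items are not reported here singly, though they stay in the counts and sums.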

Additional observations from a re-analysis of the deposited data

How the results depend on the processing

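The number of HOX rows past the test, 1 in the analysis as reported, was 2 with total count scaling. It was 0 with no filter on low counts (3 at an unadjusted p below 0.05), with DESeq2's Wald test (1), with the GC trend removed (3), with read-through rows summed (5) and with overlapping rows summed (4; chosen once the data had been seen). Of all genes, 1121 passed as reported, 0 with no filter (2486 at an unadjusted p below 0.05), 306 with the Wald test (1479 unadjusted) and 232 with the GC trend removed (2351 unadjusted). The summed level of knockdown over WT was 0.834 for HOXB and 0.797 for HOXD with total count scaling; with the GC trend removed it was 0.921 for HOXB, 0.874 for HOXD and 1.09 for HOXA, where the direction turned. With 1 hairpin left out it lay between 0.976 and 1.02 for HOXA, 0.802 and 0.828 for HOXB, 0.809 and 0.935 for HOXC, and 0.775 and 0.783 for HOXD. The HOXB share per kilobase was 7.30% with the union of exons as length, and 2 rows were over 2-fold apart between the hairpins with a prior count of 0.5. Single log2 changes turned their sign for HOXB5 with total count scaling (0.0055), for HOXD4 with overlapping rows summed (0.17) and with the GC trend removed for HOXA3 (0.0743), HOXB5 (0.14), HOXD1 (0.0097), HOXD9 (4.23e-04), HOXD4 (0.16), HOXB9 (0.0592), the main HOXC5 row (0.0541), HOXD8 (0.20) and HOXC10 (0.0169); none of these had passed the test. The sign also turned with 1 hairpin left out, for HOXA4 (-0.17), HOXA6 (-0.02), HOXB3 (-0.06), HOXD1 (0.07), HOXD4 (0.15) and HOXD13 (0.17) with shRNA 1 alone, and for HOXA10 (-0.12), HOXC5 (0.12), HOXC6 (0.03) and HOXD8 (0.35) with shRNA 2 alone; these are the rows split between the hairpins, and none had passed. The cause was not tested. Without a filter HDAC2 and the listed genes named above lost their calls (adjusted p = 0.468), and SPP1 (0.154) and COL1A2 (0.0655) lost theirs with the GC trend removed, where that of HDAC2 held. With DESeq2 size factors and upper quartile scaling all 33 rows kept their direction and call. No paired analysis was possible because WT has 1 library, so the groups share fewer than 2 replicate numbers. The single WT library limits every comparison, since its own spread could not be measured.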
